A study of Rattus norvegicus with 10 samples.

Results

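Oligodendrocyte precursor cells (OPCs) were examined as 872 nuclei, 1.57% of the 55401 nuclei kept from the dentate gyrus of 4 rats. They were chosen by a gate on 4 genes, Pdgfra, Cspg4, Vcan and Megf11. A nucleus passed with 3 or more unique molecular identifiers (UMIs, the counts of single RNA molecules) over these genes, making up at least 0.4% of its UMIs, with 1 or more UMI of Pdgfra or Cspg4 and with at most 2 UMIs over Gpr17, Enpp6 and Bmp4. Nuclei with fewer than 500 UMIs or more than 5% mitochondrial UMIs had been left out. All rats were male Sprague Dawley rats, and nuclei came from the dentate gyrus on the injured side. TBI rats (n = 2) had a craniectomy and then a lateral fluid percussion injury, a pulse of fluid onto the intact dura, 3 weeks before the tissue was taken. The control group held 1 sham rat, which had every surgical step but the pulse, and 1 naïve rat, which had no surgery. Each rat gave 1 single-nucleus RNA-seq (snRNA-seq) library. The groups are therefore small, and the control rats differ from each other in surgery.

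OPCs are the dividing glial cells from which the myelin-forming oligodendrocytes arise, and they persist throughout the adult brain. They carry the receptor PDGFRα, encoded by Pdgfra, which takes up the growth factor PDGF-A and keeps them dividing, and the surface proteoglycan NG2, encoded by Cspg4. On the way to myelination they lose both, pass through a short committed stage marked by Gpr17, Enpp6 and Bmp4, and switch on myelin genes such as Mbp. After brain injury OPCs are known to divide and to gather near lesions, and they receive synapses from neurons in the hippocampus.

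The gate found 169 precursor nuclei in TBI rat 1, 276 in TBI rat 2, 197 in the sham and 230 in the naïve rat, so that 445 came from TBI and 427 from control rats. Together they held 934200 UMIs. Summed over the precursor nuclei of a rat there were 185894 UMIs in TBI rat 1, 242171 in TBI rat 2, 209446 in the sham and 296689 in the naïve rat. The median precursor nucleus held 1078, 817, 1035 and 1226 UMIs in that order, below the 2279, 1640, 1897 and 2653 of all kept nuclei. Because of the 0.4% cutoff a deeper nucleus needed more gate UMIs to pass, and the part of the gate in this difference was not tested. Nuclei with 3 or more gate UMIs but under 0.4% of their total numbered 1045, of which 316 lay between 0.3% and 0.4%, and 283 members lay between 0.4% and 0.5%. At the other edge, 42 members held exactly 3 gate UMIs, and 568 nuclei outside held 2. A further 115 nuclei met both cutoffs without a UMI of Pdgfra or Cspg4, and the limit on the committed genes removed 3 nuclei. The libraries shared 46 to 64 cell barcodes for each pair of rats. Entries stored with the value 0 made up 0.977%, 25.4%, 7.43% and 10.3% of the stored entries of precursor nuclei in TBI rat 1, TBI rat 2, the sham rat and the naïve rat. They were read as 0, and no source used here states their origin.

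The 4 gate genes chose the nuclei, so their levels are given only as a description. Levels are in CPM, the UMIs of a gene summed over the nuclei of 1 class in 1 rat and scaled to the same total of UMIs in every sum. Pdgfra stood at 1732 and 1842 CPM in the TBI rats, 1599 in sham and 2140 in naïve, against a mean of 19.0 CPM over all other kept nuclei. Cspg4 stood at 726 and 752 CPM in the TBI rats and at 611 and 681 in the sham and naïve rats. Vcan, a large matrix proteoglycan, had a mean of 1242 ± 99.8 CPM (SD, n = 4), and Megf11, a cell surface repeat protein, had a mean of 2226 ± 236 CPM (SD, n = 4). In single nuclei, a Pdgfra UMI was found in 88.2% and 85.1% of precursor nuclei of the TBI rats, 88.8% of the sham rat and 93.9% of the naïve rat. In nuclei of mature oligodendrocytes, which should lack it and had median depths of 971, 717, 1064 and 1109 UMIs, the share was 1.10%, 0.472%, 1.59% and 0.446%. Cspg4 was found in fewer members, between 48.7% in the sham and 56.5% in the naïve rat. Bmp4, though used to set a ceiling, was still found in 12.4%, 10.1%, 9.14% and 10.4% of members, whereas Gpr17 was found in at most 2.17%.

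Smoc1, a secreted calcium-binding protein that the gate did not use, was measured at 161 and 194 CPM in the precursor nuclei of the TBI rats, 181 in the sham and 233 in the naïve rat. In all other kept nuclei of the same rats Smoc1 was at 6.37, 9.68, 6.84 and 3.96 CPM. A Smoc1 UMI was found in 16.0%, 14.1%, 15.7% and 23.9% of members and in 1.46%, 1.55%, 1.30% and 1.01% of the other nuclei, although those were deeper. With every nucleus thinned to 500 UMIs, the shares in members were 6.51%, 8.33%, 10.2% and 10.9%, and in the other nuclei 0.429%, 0.504%, 0.484% and 0.260%. The label of the cells thus held for a gene outside the gate in each rat.

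**Figure D1:**
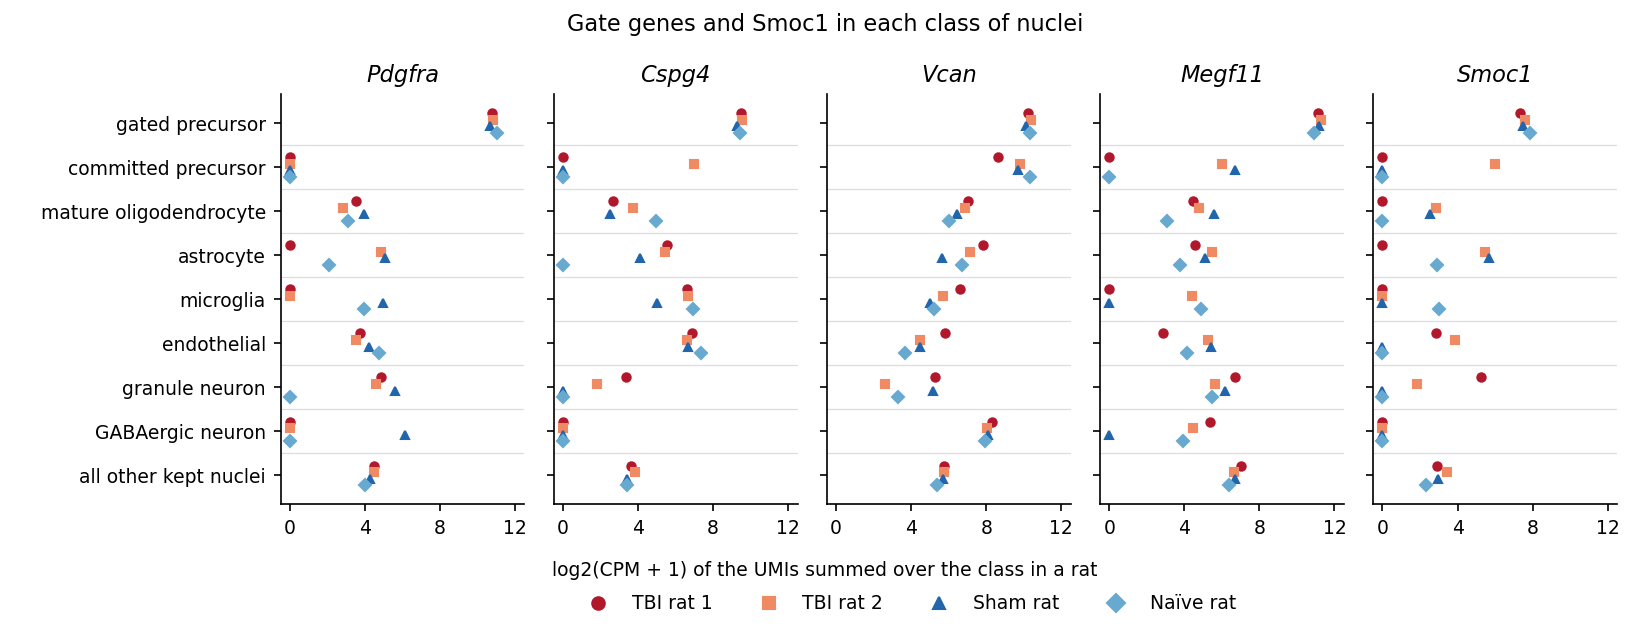
Level of the 4 gate genes and of Smoc1 in each class of nuclei, as log2(CPM + 1) of the UMIs summed over the class, with 1 point per rat. Classes are nuclei that pass a marker gate, and small classes rest on few nuclei (34 to 87 astrocyte nuclei a rat). Smoc1, which was not used in the gate, lies between 161 and 233 CPM in gated precursors.

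Beyond the gate, 23 other genes known from OPCs were in the matrices. For 21 of them the precursor nuclei of all 4 rats were above the other nuclei of the same rat, and Neu4 was among the exceptions. Against mature oligodendrocytes 19 were above in all 4 rats, against astrocytes 21, against granule neurons 21 and against microglia 20. Sox10 and Olig1, transcription factors of the whole oligodendrocyte lineage, were above mature oligodendrocytes in 3 of 4 rats. Neu4 had no UMI in any member, which allows a share of up to 0.344% of members with a UMI of it and sets no limit on cells that express it. Olig2, another lineage factor, was found at 108 and 61.9 CPM in the TBI rats, 23.9 in sham and 175 in naïve. The sham value rests on 5 UMIs, and the control rats lay on both sides of the TBI rats.

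Ranked by the mean log2 ratio to all other kept nuclei among genes of at least 50 CPM, the precursor nuclei were led by Pdgfra and Cspg4 with 6.52 and 5.86, followed by genes that the gate did not name. These comparisons come from the same nuclei as the gate and carry no test. Col5a3, a chain of fibrillar collagen V, had a ratio of 5.41 ± 0.44 (SD, n = 4), with 1270 and 1210 CPM in the TBI rats, 1194 in sham and 1911 in naïve. Pstpip2, an adaptor of the actin cytoskeleton, had 845, 979, 955 and 1338 CPM in the same order, and a ratio of 5.18 ± 0.41. Rlbp1, a retinoid-binding protein, had 339, 454, 296 and 469 CPM and a ratio of 4.89 ± 0.55. Each of these genes had its highest value in the naïve rat. The remaining genes of the first 20, apart from Vcan, were Fam89a, Inava, Susd5, Shc4, Arhgap31, Smoc1, Rbpjl, Sema3d, Sapcd2, Armh4, C1ql1, Prkg2, Chst5 and Pmel, with mean ratios of 4.56 to 5.23. Sema3d encodes a secreted guidance cue of the semaphorin family, C1ql1 a C1q-like secreted protein, and Shc4 an adaptor of receptor tyrosine kinases.

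The study's own oligodendrocyte precursor clusters together held a larger share of nuclei in both groups than this gate. Each of those clusters was a larger share in TBI than in control. The gate takes in fewer nuclei, so its share is not the frequency of OPCs in the tissue. The share of nuclei passing the gate was compared between TBI and control rats. It was 1.35% in TBI rat 1 (95% Clopper-Pearson interval 1.15% to 1.57%), 1.89% in TBI rat 2 (1.68% to 2.13%), 1.16% in the sham rat (1.01% to 1.34%) and 2.02% in the naïve rat (1.77% to 2.30%). Intervals cover counting error only. The TBI rats lay between the control rats, and each group held a low and a high rat. The TBI mean was 1.62% ± 0.39 (SD, n = 2) and the control mean 1.59% ± 0.61 (SD, n = 2), a difference of 0.028 percentage points (exact permutation test, two-sided, p = 1). With 2 rats against 2 the smallest p possible is 0.333, so this design cannot pass 0.05. The difference changed sign with the gate, to -0.22 points when 5 or more gate UMIs were asked for and to -0.54 points over nuclei of 1000 or more UMIs. With every nucleus thinned to 500 UMIs before the gate, the shares were 0.95% and 1.32% in the TBI rats and 0.762% and 1.28% in the sham and naïve rats.

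**Figure D2:**
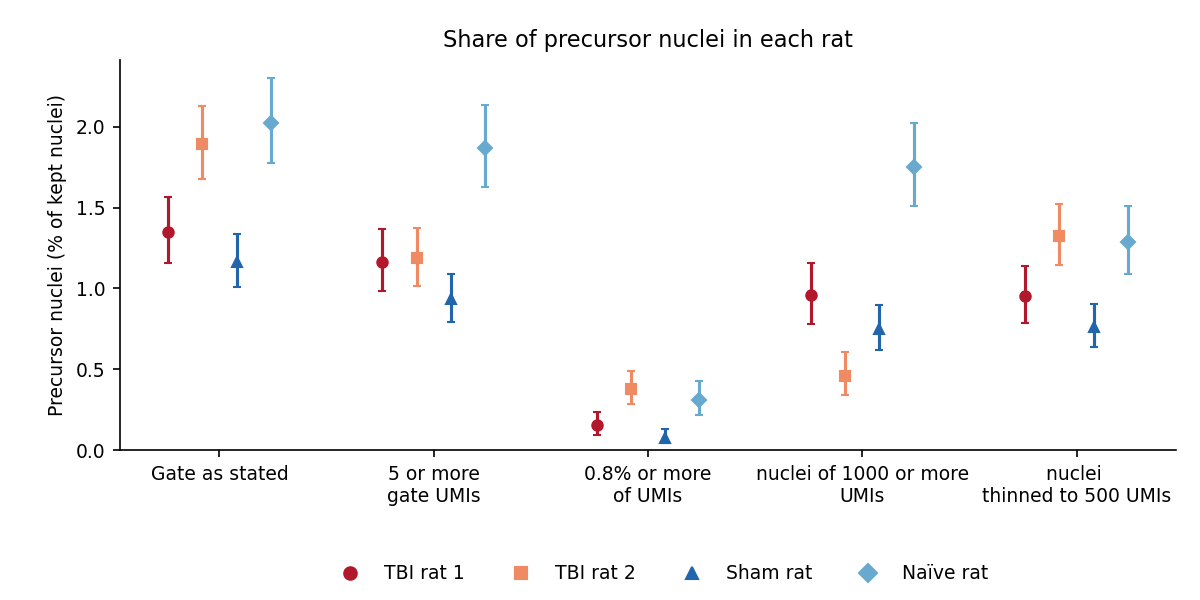
Precursor nuclei as a percentage of the nuclei kept in each rat (y axis), under the gate as stated and 4 other settings (x axis), with 1 point per rat and 95% Clopper-Pearson intervals. The TBI rats lie between the control rats under the stated gate, and TBI rat 2 drops from 1.89% to 0.46% over nuclei of 1000 or more UMIs.

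Committed precursors, counted as nuclei outside the OPC gate with 3 or more UMIs and at least 0.4% of UMIs over Gpr17, Enpp6 and Bmp4, mark the step toward oligodendrocytes. There was 1 such nucleus for 169 precursor nuclei in TBI rat 1, 17 for 276 in TBI rat 2, 9 for 197 in the sham rat and 7 for 230 in the naïve rat. Per 100 precursor nuclei this was 0.592, 6.16, 4.57 and 3.04, so that the TBI rats held both the lowest and the highest value. The means differed by -0.43 (exact permutation test, two-sided, p = 1). Nuclei of mature oligodendrocytes, found with Mog, Mag, Mobp, Ermn and Opalin, numbered 181, 635, 189 and 224, with TBI rat 2 alone above the rest.

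Division was read from 8 genes of the S to M phases, namely Mki67, Top2a, Cenpf, Cenpe, Aspm, Kif11, Knl1 and Tpx2. Precursor nuclei with 2 or more of these UMIs numbered 2 of 169 in TBI rat 1 (1.18%, 95% Clopper-Pearson interval 0.144% to 4.21%), 7 of 276 in TBI rat 2 (2.54%, 1.03% to 5.16%), 4 of 197 in the sham rat (2.03%, 0.556% to 5.12%) and 9 of 230 in the naïve rat (3.91%, 1.80% to 7.30%). Among mature oligodendrocytes, which do not divide, 1 of 1229 nuclei over all rats reached 2 UMIs. The TBI and control means of the precursor nuclei were 1.86% and 2.97%, a difference of -1.11 points (exact permutation test, two-sided, p = 0.667). Thinned to 500 UMIs, the shares were 1.18% and 1.81% in the TBI rats and 1.52% and 2.61% in the sham and naïve rats. Top2a, the topoisomerase of dividing cells, had 6 and 15 UMIs in precursor nuclei of the TBI rats and 7 and 25 in the sham and naïve rats, so the groups overlapped. Of 30 cell cycle genes, 2 had enough UMIs to be tested, Top2a and Pola1, a subunit of DNA polymerase alpha, at a Log2FC of -0.38 and 0.27.

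For single genes, UMIs were summed over the precursor nuclei of each rat, and TBI was compared with control over 4981 genes. None passed a false discovery rate (FDR) of 0.05 in edgeR's quasi-likelihood test (0.0% of genes tested), with a smallest FDR of 0.999. Unadjusted p was under 0.05 for 94 genes in edgeR (1.89%) and for 11 in DESeq2, which also called 0. Both TBI rats were above both controls for 789 genes (15.8%) and below both for 635 (12.7%). The statements below on single genes are therefore levels in 4 rats, and none is a change that passed the test.

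In precursor nuclei the median absolute difference over genes, in log2 CPM, was 0.37 between the naïve rat and either the sham rat or TBI rat 1, and 0.32 between the naïve rat and TBI rat 2. Between the other rats it was 0.29 to 0.32. The naïve rat had the lowest level for 31.2% of tested genes, against 20.3% to 25.1% in each of the other rats, and the highest for 25.8%, against 24.1% to 25.5%. Without the sham rat, edgeR called 101 genes at an FDR of 0.05, 72 higher and 29 lower in TBI, with the lone naïve rat assumed to vary like the TBI rats. Without the naïve rat it called 0. The called genes are those in which the lone naïve rat lay far from the TBI rats.

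The genes given next as examples of this difference were chosen after their values were seen. Syt1, the calcium sensor of synaptic vesicles, was at 2308 and 1276 CPM in the TBI rats, 2297 in sham and 671 in naïve. Grin2b, an NMDA receptor subunit, was at 1017, 628, 941 and 266 CPM in the same order. Cntnap5b, a neuronal adhesion protein, was at 247, 310, 325 and 33.7 CPM. The naïve rat was the lowest for all 3 genes. In the other direction, the chaperone Hspa5 was at 151 and 82.6 CPM in the TBI rats, 85.9 in sham and 421 in naïve, and Hsp90b1, another chaperone of the endoplasmic reticulum, at 199, 124, 129 and 472. Apoe, the main lipid carrier of the brain, was at 732, 979, 711 and 1807 CPM. The naïve rat was the highest in other nuclei too. In all other kept nuclei Hspa5 was at 80.7, 32.2, 46.4 and 162 CPM, Hsp90b1 at 108, 95.4, 77.5 and 229, and Apoe at 534, 684, 449 and 1372.

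**Figure D3:**
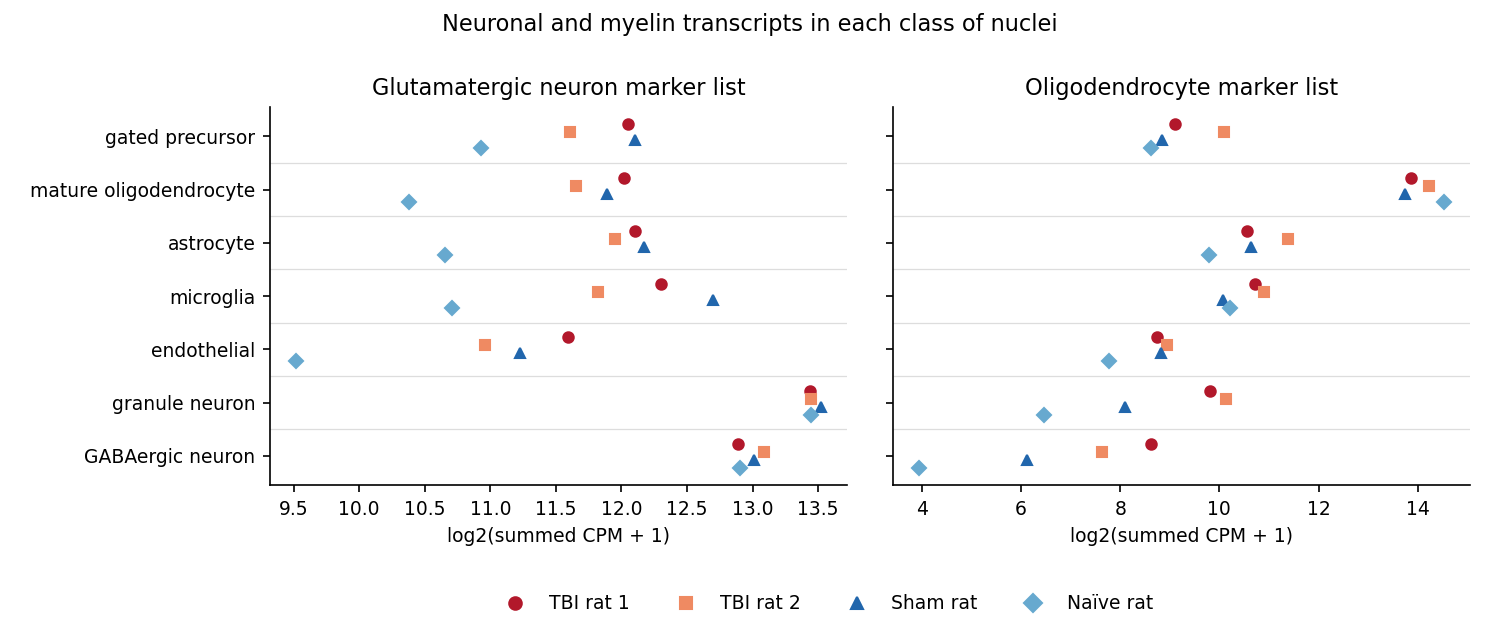
Summed level of the glutamatergic neuron and oligodendrocyte marker lists in 7 classes of nuclei, as log2 of the summed CPM plus 1, with 1 point per rat. In gated precursors, mature oligodendrocytes, astrocytes, microglia and endothelial cells the naïve rat has the lowest neuronal sum, while the 4 rats lie close together in granule neurons. The gate genes of granule neurons are in the neuronal list and those of mature oligodendrocytes in the oligodendrocyte list, so part of these sums is set by the gates.

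Transcripts of neurons were lower in the naïve rat in other glia as well. The glutamatergic neuron list, of which 11 of 12 genes were in the matrices with Syt1 the most abundant, summed to 4228 and 3114 CPM in precursor nuclei of the TBI rats, 4393 in the sham and 1948 in the naïve rat. In mature oligodendrocytes the sums were 4148, 3221, 3804 and 1335 CPM, and in microglia 5040, 3623, 6638 and 1670. In granule neurons they were 11095, 11167, 11736 and 11169, within a narrow range. The granule neuron gate used Prox1, Slc17a7, Rbfox3 and Bcl11b, which are in this list, so part of that sum is set by the gate. Of 9 tested genes of the list in precursor nuclei, 7 had a Log2FC above 0, with a median of 0.15 that became -0.09 without the naïve rat and 0.68 without the sham rat. Slc17a7, the vesicular glutamate transporter, had 199 and 178 CPM in the TBI rats and 134 and 97.7 in the sham and naïve rats, a Log2FC of 0.68 ± 0.30 (SE). The part of transcripts from other cells in these values was not tested.

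By the rule for naming genes, the 25 with the smallest p in edgeR whose TBI rats both lay on one side of both controls were taken, 14 higher and 11 lower in TBI. Their unadjusted p ran from 0.00167 to 0.0223 and their absolute Log2FC from 0.75 to 1.94. Because groups that do not overlap chose them, their sign with 1 rat left out is fixed by the choice. Most rest on few UMIs per rat. Without the naïve rat the Log2FC was 0.91 for Irs2, 2.95 for Mast3, -0.52 for Pnn, -0.51 for Atad2b, -0.80 for AABR07040095.1 and -0.79 for AABR07071697.1, each more than 1.5 times from its value with all rats.

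A myelin gene was among them. Mbp, encoding myelin basic protein, was at 215 and 396 CPM in the TBI rats, 162 in sham and 94.4 in naïve, a Log2FC of 1.26 ± 0.38 (SE) that was 0.73 without TBI rat 2. TBI rat 2 was the highest and the naïve rat the lowest. Of the 14 oligodendrocyte markers, 4 had enough UMIs to be tested and all 4 had a Log2FC above 0 (48.6% of all genes tested did), with a median of 0.68 against -0.01 over all genes. Cnp, an enzyme of myelin membranes, and Tspan2, a tetraspanin of oligodendrocytes, had overlapping groups, with a Log2FC of 0.12 and 0.26. The list summed to 549 and 1094 CPM in precursor nuclei of the TBI rats and to 458 and 394 in the sham and naïve rats, with Mbp the most abundant. In all other kept nuclei together, which include the mature oligodendrocytes and committed precursors, the list summed to 677, 1109, 578 and 507 CPM. These sums had the order of the precursor nuclei and lay above them in every rat. Mbp stood there at 290, 466, 260 and 195 CPM. Myelin transcripts were also found in nuclei outside the oligodendrocyte lineage. In granule neurons the order of the rats was that of precursor nuclei, and in microglia, astrocytes and endothelial cells it was another. In microglia the sums were 1680, 1903, 1076 and 1188 CPM, with both TBI rats above both controls. In granule neurons the list summed to 903, 1116, 271 and 87.7 CPM, and Mbp stood at 531, 703, 165 and 43.8 CPM. In astrocytes the list summed to 1506, 2654, 1600 and 889 CPM and in endothelial cells to 427, 494, 452 and 218, so that there the sham rat was above TBI rat 1. In mature oligodendrocytes Mbp was at 4548, 5481, 4299 and 7745 CPM, where the naïve rat was the highest. The part of free myelin transcripts in the precursor values was not tested.

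Of 15 genes of the differentiation program, 10 were tested, 5 above and 5 below 0, with a median Log2FC of 0.01. Myrf, the transcription factor that starts myelin gene expression, had 11 and 17 UMIs in the TBI rats and 6 and 9 in the sham and naïve rats (59.2, 70.2, 28.6 and 30.3 CPM), a Log2FC of 1.09 ± 0.52 (edgeR, unadjusted p = 0.062). Sirt2, a deacetylase abundant in myelinating glia, was at 161, 116, 115 and 111 CPM, so that TBI rat 2 hardly left the controls. Kif21a, a kinesin motor, overlapped between the groups with 124, 145, 129 and 40.4 CPM. Bmp4, whose UMIs the gate capped, stood at 118 and 116 CPM in the TBI rats and 90.7 and 87.6 in the controls, given as a description with no test. The other capped genes had few UMIs, with 2, 1, 2 and 5 for Gpr17 and 3, 2, 0 and 1 for Enpp6 in TBI rat 1, TBI rat 2, the sham rat and the naïve rat.

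Secreted and receptor-linked proteins were also among the named genes. Vegfa, the growth factor for blood vessels, was at 242 and 206 CPM in the TBI rats, 71.6 in sham and 128 in naïve, from 45, 50, 15 and 38 UMIs (Log2FC 1.08 ± 0.33, SE). Irs2, an adaptor of the insulin and IGF-1 receptors, was at 96.8, 103, 52.5 and 23.6 CPM, a Log2FC of 1.42 ± 0.45. Bmp1, a protease that processes procollagens, had 13 and 21 UMIs in the TBI rats against 7 and 8. Plxna3, a semaphorin receptor subunit, had 15 and 25 against 10 and 10. For Vegfa the sham rat was the lowest, and for Irs2 the naïve rat was, with the TBI rats close together in both.

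**Figure D4:**
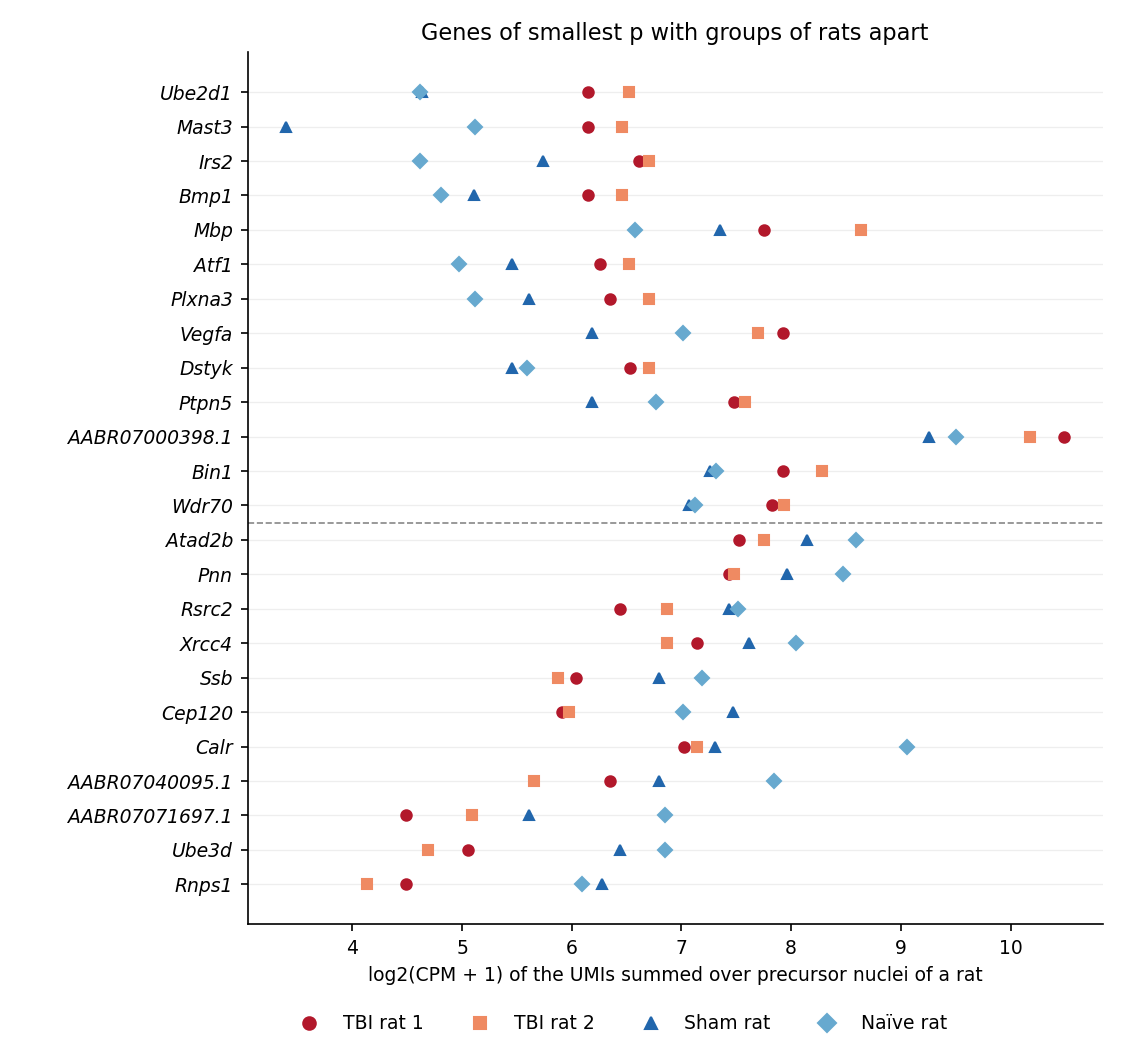
Levels of 24 of the 25 named genes in precursor nuclei, as log2(CPM + 1) with 1 point per rat, ordered by Log2FC, with genes higher in TBI above the dashed line and lower below it. The genes were picked because the groups do not overlap, so the gap is given by the choice, and the naïve rat alone stands far to the right for Calr.

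Other genes with higher values in both TBI rats included Ube2d1, a ubiquitin-conjugating enzyme, at 69.9 and 90.8 against 23.9 and 23.6 CPM (Log2FC 1.72 ± 0.49). Ptpn5, a tyrosine phosphatase abundant in neurons, was at 178 and 190 against 71.6 and 108 CPM. Bin1, which bends membranes, was at 242 and 310 against 153 and 158 CPM, a Log2FC of 0.79 ± 0.28. Mast3, a kinase, had 13 and 21 UMIs against 2 and 10, Dstyk, a dual-specificity kinase, 17 and 25 against 9 and 14, and Atf1, a CREB-family transcription factor, 14 and 22 against 9 and 9. Wdr70, a WD-repeat protein, was at 226 and 244 against 134 and 138 CPM. The unannotated locus AABR07000398.1 was at 1431 and 1160 against 611 and 725 CPM, from 128 or more UMIs in each rat.

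The other 11 named genes had lower values in both TBI rats. Rnps1, which marks spliced exon junctions, had 4 and 4 UMIs in the TBI rats and 16 and 20 in the sham and naïve rats, a Log2FC of -1.94 ± 0.56. Ssb, the La protein that binds ends of new RNAs, was at 64.6 and 57.8 against 110 and 145 CPM. Pnn, a splicing-associated nuclear protein, was at 172 and 178 against 248 and 354 CPM, and Rsrc2, an arginine- and serine-rich nuclear protein, at 86.1 and 116 against 172 and 182. Ube3d, a ubiquitin ligase, had 6 and 6 UMIs against 18 and 34, with the smallest p of all genes and a Log2FC of -1.87 ± 0.43. Cep120, needed to build centrioles, had 11 and 15 UMIs against 37 and 38. Xrcc4, of the end-joining repair of DNA, was at 140 and 116 against 196 and 263 CPM, and Atad2b, a bromodomain protein, at 183 and 215 against 282 and 384. Calr, a chaperone of the endoplasmic reticulum, was at 129 and 140 against 158 and 533 CPM, and its Log2FC of -1.42 became -0.24 without the naïve rat. In all other kept nuclei Calr was at 105, 74.6, 88.7 and 219 CPM, again highest in the naïve rat. The unannotated loci AABR07040095.1 and AABR07071697.1 had 15 and 12 UMIs against 23 and 68, and 4 and 8 against 10 and 34. Stored zeros were frequent for some of these in TBI rat 2, at 61.5% of the stored entries of Ube3d. With stored zeros read as 1 UMI, the Log2FC was -1.43 for Ube3d, -1.38 for Rnps1, -0.64 for Pnn and -0.63 for Rsrc2, smaller in size than with zeros read as 0 and still negative.

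PDGF signaling was described by 25 genes, of which 19 were tested, 11 above and 8 below 0, with a median Log2FC of 0.05. In 3 of the 19 both TBI rats were higher and in 1 lower, against the 15.8% and 12.7% of all genes tested. Among ligands, Pdgfd, a PDGF that binds mainly the β receptor, was at 108 and 74.3 CPM in the TBI rats, 85.9 in sham and 189 in naïve, and the groups overlapped. Among the relays below the receptor, Nck2, an adaptor that couples receptors to actin, was at 145 and 161 against 115 and 70.8 CPM, a Log2FC of 0.72 ± 0.34 (edgeR, unadjusted p = 0.059). Rasa1, a GTPase activator that switches Ras off, was at 113 and 128 against 162 and 179 CPM, a Log2FC of -0.53 ± 0.29. Of 31 other growth factor and differentiation receptors, 17 were tested, with 7 above 0 and a median of -0.04 that was 0.08 without the naïve rat and 0.23 without the sham rat. Acvr1, a type I receptor for BMPs, was at 140 and 136 CPM in the TBI rats against 85.9 and 64.0, a Log2FC of 0.86 ± 0.33 (edgeR, unadjusted p = 0.026, not past the FDR). Fgfr2, a receptor for FGFs, was at 75.3 and 82.6 against 71.6 and 23.6 CPM, at a Log2FC of 0.78 ± 0.51. Bmpr2, a type II BMP receptor, overlapped between the groups.

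Signals that hold precursors back from maturing were measured as 22 Notch and BMP genes, of which 6 were tested, 3 above and 3 below 0, with a median Log2FC of 0.04 that became 0.68 without the naïve rat and -0.12 without the sham rat. Notch1, the receptor, was at 145 and 215 CPM in the TBI rats and 85.9 and 131 in the sham and naïve rats, a Log2FC of 0.68 ± 0.34 (edgeR, unadjusted p = 0.075). Rbpj, the DNA-binding partner of activated Notch, had 6, 34, 11 and 28 UMIs, with each group spanning a wide range. Maml2, a coactivator of that complex, differed little, from 2359 to 2747 CPM over the 4 rats. Of 19 Wnt genes 7 were tested, 3 above and 4 below 0. Tcf7l1, a repressor of Wnt targets, was at 140 and 157 against 191 and 212 CPM, Rnf43, which removes Wnt receptors from the surface, at 140 and 186 against 191 and 195, and the coreceptor Lrp6 at 194 and 219 against 162 and 165. The median of the Wnt list was -0.12, and -0.02 without the naïve rat and 0.04 without the sham rat. Of 18 cell cycle regulators 5 were tested with a median of 0.04 (-0.05 without the sham rat), among them Ccnd1, a cyclin that takes cells through G1, at 69.9, 132, 105 and 152 CPM with overlapping groups. Ccnd2, a related cyclin, was at 53.8 and 49.6 against 14.3 and 43.8 CPM. Mdm2, the ligase that removes p53, overlapped as well.

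Markers of OPC identity outside the gate overlapped between the groups for most genes. Of the 20 tested, both TBI rats were below both controls for 2 and above for 0, against 12.7% and 15.8% of all genes tested. A Log2FC above 0 was found for 2, against 48.6% of all genes, with a median of -0.21 that became 0.13 without the naïve rat and -0.43 without the sham rat. Ptprz1, a receptor phosphatase of the precursor surface, was at 2878 and 3473 CPM in the TBI rats, 2745 in sham and 5204 in naïve. Pcdh15, a protocadherin typical of OPCs, was at 2028 and 1842 against 2359 and 2642 CPM, a Log2FC of -0.41 ± 0.20 (edgeR, unadjusted p = 0.070). Brinp3 was at 1076, 1462, 1351 and 1999 CPM and Luzp2 at 1684, 2143, 1986 and 2707, with the naïve rat highest in each. The median over all tested genes stayed between -0.01 and 0.00 in these fits.

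**Figure D5:**
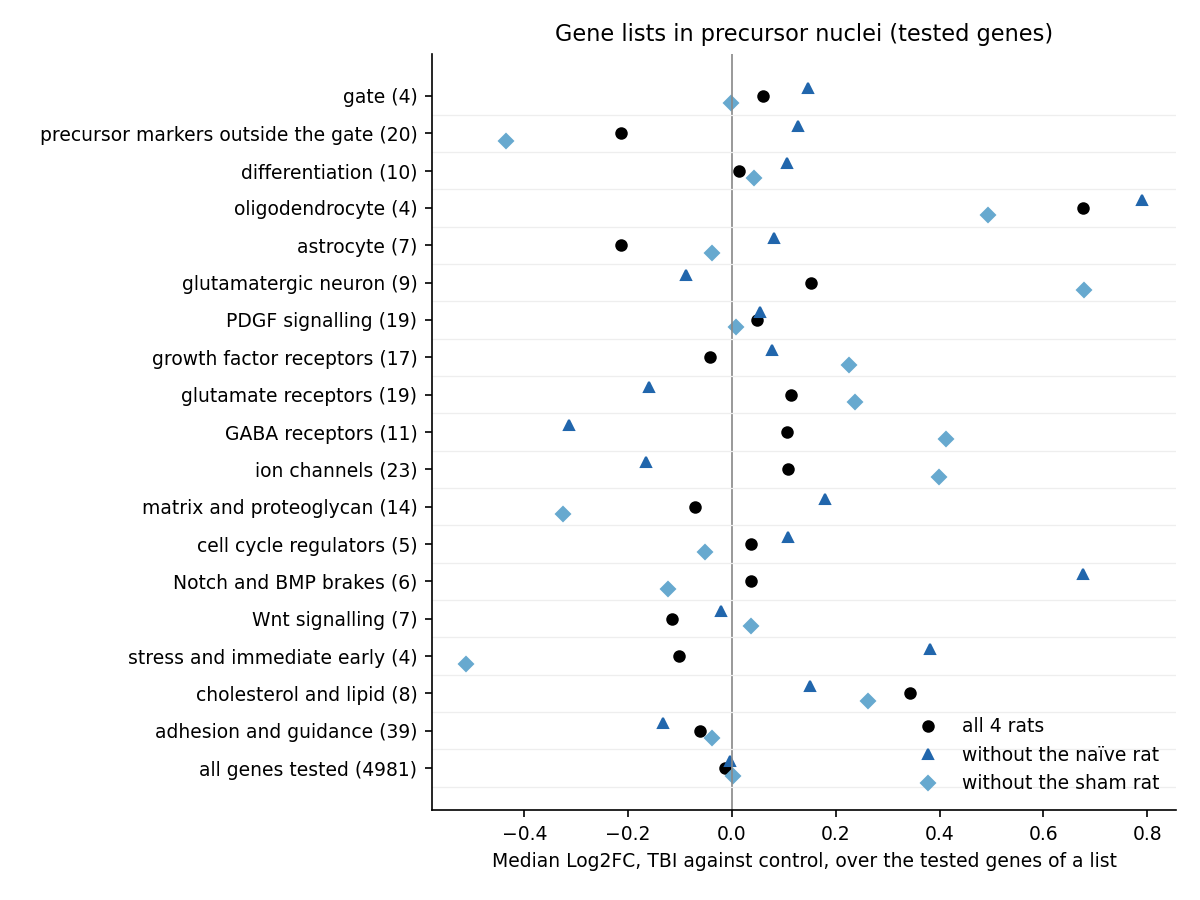
Median Log2FC of TBI against control over the tested genes of each list in precursor nuclei, with all 4 rats, without the naïve rat and without the sham rat, and the number of tested genes in brackets. The oligodendrocyte, cholesterol, differentiation and PDGF lists stay above 0 in all 3 fits, while the glutamatergic neuron, glutamate and GABA receptor, ion channel, precursor marker, matrix, astrocyte, cell cycle regulator, Notch and BMP, Wnt and stress lists differ in sign between the fits without the naïve and without the sham rat. The gate list also differs in sign, but its genes chose the nuclei, so its points are a description only.

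OPCs express transmitter receptors and ion channels. Of 22 glutamate receptor genes 19 were tested, 12 above and 7 below 0, with a median Log2FC of 0.11 that became -0.16 without the naïve rat. Grin3a, an NMDA receptor subunit, was at 328 and 339 CPM in the TBI rats, 334 in sham and 485 in naïve. Grik3, a kainate receptor subunit, was at 134 and 145 against 153 and 189 CPM. Of 13 GABA-A receptor genes 11 were tested with a median of 0.11, and -0.31 without the naïve rat. Gabrg1, a subunit typical of glia, was at 167 and 182 against 196 and 297 CPM, a Log2FC of -0.55 ± 0.30. Gabrg3 and Gabra3 overlapped between the groups. Of 31 ion channel genes 23 were tested with a median of 0.11, and -0.16 without the naïve rat. Scn8a, a voltage-gated sodium channel, was at 549 and 508 CPM in the TBI rats against 387 and 286, a Log2FC of 0.62 ± 0.26 (edgeR, unadjusted p = 0.041, not past the FDR). Kcnj10, the inward rectifier Kir4.1, overlapped between the groups with 91.4, 120, 33.4 and 94.4 CPM.

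Matrix and adhesion genes were tallied next. Of 26 matrix and proteoglycan genes 14 were tested, 4 above and 10 below 0, with a median Log2FC of -0.07 that became 0.18 without the naïve rat and -0.33 without the sham rat. Mmp16, a membrane-bound metalloprotease, was at 1071 and 1239 CPM in the TBI rats against 1256 and 1554. Cspg5, or neuroglycan C, was at 280, 322, 258 and 512 CPM, and Tnc, the matrix glycoprotein tenascin-C, at 69.9, 107, 76.4 and 50.6, both with overlapping groups. Of 42 adhesion and guidance genes 39 were tested, 15 above and 24 below 0, with a median of -0.06. In 8 of the 39 both TBI rats were lower and in 1 higher, against 12.7% and 15.8% of all genes tested. Nlgn3, a neuroligin that OPCs also make, had 14 and 23 UMIs in the TBI rats and 26 and 47 in the sham and naïve rats, the TBI rats being lower per total of UMIs, a Log2FC of -0.76 ± 0.33 (edgeR, unadjusted p = 0.044, not past the FDR). Lrrc4c, a synaptic adhesion protein, was at 1571 and 1817 against 1891 and 2487 CPM, and the integrin Itgb8 at 161, 194, 191 and 344.

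Lipid supply and stress genes rested on fewer UMIs. Of 28 cholesterol and lipid genes 8 were tested, 5 above and 3 below 0, with a median Log2FC of 0.34 that was 0.15 without the naïve rat and 0.26 without the sham rat. Scd2, which desaturates fatty acids, was at 210 and 248 CPM in the TBI rats against 167 and 165, a Log2FC of 0.43 ± 0.27. Cyp51, an enzyme of sterol synthesis, was at 59.2 and 61.9 against 9.55 and 47.2 CPM, and the sham value rests on 2 UMIs. Of 24 stress and immediate early genes 4 were tested with a median of -0.10 that became 0.38 without the naïve rat and -0.51 without the sham rat. Besides Hspa5, these included the chaperone Hsp90aa1 at 53.8 and 61.9 against 52.5 and 40.4 CPM and the orphan receptor Nr4a1 with 4, 11, 6 and 16 UMIs. Of 30 antigen presentation and interferon genes only B2m, the light chain of MHC class I, could be tested, at 86.1 and 90.8 CPM in the TBI rats, 23.9 in sham and 87.6 in naïve. Of 16 complement genes only Clu, or clusterin, could be tested, at 145, 186, 143 and 212 CPM.

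Markers of other cells were found in precursor nuclei at levels that differed between the lists. The 12 microglia markers summed to 108 and 120 CPM in the TBI rats and 115 and 60.7 in the sham and naïve rats, with Inpp5d the most abundant and P2ry12 at 0, and none could be tested. Of the pericyte and fibroblast list 11 of 12 were in the matrices, 5 had no UMI in members, and the sums were 16.1, 28.9, 9.55 and 16.9 CPM. The endothelial list, 7 of 10 genes in the matrices, summed to 91.4, 33.0, 62.1 and 16.9 CPM with Flt1 the most abundant. The astrocyte list of 12 genes summed to 1404, 1392, 1676 and 1513 CPM, with Slc1a3, a glutamate transporter, the most abundant, against 1605, 1724, 1884 and 2179 CPM in all other kept nuclei. Of its 7 tested genes 3 were above 0 with a median of -0.21 (0.08 without the naïve rat), and Slc1a2 and Gja1 had a Log2FC of -0.60 and 0.31. The GABAergic list summed to 586, 690, 859 and 708 CPM, above the 571, 662, 576 and 458 of all other kept nuclei in each rat. Most of it came from Erbb4, a neuregulin receptor that was at 473 and 545 CPM in the TBI rats against 649 and 661 (Log2FC -0.40 ± 0.24). Pvalb and Sst, which define interneuron types, had 1 and 4 UMIs over all members, with Pvalb in TBI rat 2 alone. The astrocyte sums within precursor nuclei varied less between rats than the neuronal and myelin sums. Over all rats, 3 members also passed the gate of another class.

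Whether precursor nuclei responded to injury differently from other glia was tested as an interaction of class and injury. Against mature oligodendrocytes edgeR called 0 of 5825 genes at an FDR of 0.05 (0.0%), with 158 at an unadjusted p under 0.05, and DESeq2 called 0. Parp8, an ADP-ribosyltransferase, had 24 and 35 UMIs in precursor nuclei of the TBI rats and 34 and 50 in those of the sham and naïve rats, and in mature oligodendrocytes 11, 17, 1 and 0. Cyp51 was at 59.2, 61.9, 9.55 and 47.2 CPM in precursors and 48.0, 62.0, 61.9 and 204 in mature oligodendrocytes. Rlbp1 had 63, 110, 62 and 139 UMIs in precursors and 0, 0, 8 and 4 in mature oligodendrocytes. Eef1g, a subunit of a translation elongation factor, and Cldn11, the tight junction protein of myelin, completed the 5 genes with the smallest p, each on fewer than 15 UMIs in every rat's precursor nuclei.

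Against astrocytes edgeR called 0 of 6084 genes (0.0%), with 274 at an unadjusted p under 0.05, and DESeq2 called 0. The astrocyte sums came from 34, 48, 49 and 87 nuclei. Vegfa was among the 5 genes with the smallest p. In astrocytes it was at 157 and 128 CPM in the TBI rats and 214 and 248 in the sham and naïve rats, where the TBI rats were lower, while in precursor nuclei they were higher, an interaction of 1.85 ± 0.54 (SE) on the log2 scale with an FDR of 0.997 in edgeR. The astrocyte values of Vegfa rest on 7, 9, 13 and 78 UMIs in TBI rat 1, TBI rat 2, the sham rat and the naïve rat. Fa2h, which makes hydroxylated myelin lipids, had 27, 49, 37 and 58 UMIs in precursors and 3, 6, 0 and 1 in astrocytes. Dnm3, a dynamin, was at 1140, 1309, 1112 and 1621 CPM in precursors and 225, 170, 49.5 and 44.6 in astrocytes. Slc15a2, a peptide transporter, had 5, 8, 2 and 1 UMIs in precursors and 5, 14, 20 and 96 in astrocytes, and Asph, a hydroxylase, 22, 24, 28 and 14 against 3, 3, 17 and 48.

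Bulk RNA-seq of the dentate gyrus from 3 other TBI rats and 3 sham rats gave a view of the same genes in whole tissue, where fewer cells of a type and less RNA per cell cannot be told apart. By limma on the deposited log2 CPM, 0 of 14166 genes passed an FDR of 0.05 (0.0%), with 1340 at an unadjusted p under 0.05 (9.46%). The study tested counts of the same libraries with DESeq2 and reported differentially expressed genes, nearly all higher in TBI, complement genes among them. The test and the input differ, so the 0 here does not mean that the tissue lacked an injury effect. All libraries of one group were above those of the other for 14.7% of genes. Pdgfra was at 5.89, 5.88 and 6.76 log2 CPM in the TBI rats and 5.82, 6.39 and 5.82 in the sham rats, a Log2FC of 0.17 ± 0.27 (SE). Cspg4 was at 5.23, 5.42 and 5.63 against 4.88, 5.36 and 5.04, a Log2FC of 0.34 ± 0.16. Vcan and Megf11 had a Log2FC of -0.04 and -0.11, and Smoc1 one of 0.48 ± 0.29. None of the 4 gate genes and none of the 22 other precursor markers in the table separated the groups. Mbp had a mean of 11.6 ± 0.32 log2 CPM (SD, n = 3) in the TBI rats and 12.1 ± 0.84 (SD, n = 3) in the sham rats, a Log2FC of -0.50 ± 0.39, and 13 of 14 oligodendrocyte genes were below 0 with a median of -0.51. Without sham rat 2, which had the highest Mbp, that median was 0.01. Vegfa was at 6.54, 6.20 and 6.60 log2 CPM against 6.79, 6.64 and 6.60, a Log2FC of -0.23 ± 0.13. Bmp1, also higher in precursor nuclei of the TBI rats, was at 5.52, 5.53 and 5.55 log2 CPM against 5.15, 5.07 and 4.79. Its Log2FC was 0.53 ± 0.12, with an FDR of 0.169 in limma. All TBI libraries were above all sham libraries for Bmp1, as for 11.7% of all genes.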

How the data were processed

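For snRNA-seq the authors isolated nuclei from each rat separately, ran Cell Ranger over exons and introns (Rnor_6.0) and deposited UMI counts of 25399 genes for each rat, with no normalization. For bulk RNA-seq the authors deposited log2 CPM of 14166 genes, of which 13778 matched a RefSeq symbol (GRCr8). The members, lists and tests were chosen with earlier results of these data known. Of 55863 barcodes, 444 had under 500 UMIs and 22 over 5% mitochondrial UMIs. The study's stated filters, applied again here as an alternative, left 55124 nuclei. No doublet caller was run. Other classes passed gates of 3 or more UMIs and at least 0.4% of UMIs of their markers, and no annotation by the authors was used here. UMIs were summed per rat and tested by edgeR 4.0.16 (TMM normalization, filterByExpr, quasi-likelihood, Benjamini-Hochberg adjustment). DESeq2 1.42.0, limma 3.58.1, R 4.3.3 and scipy 1.17.1 were also used, and the models were tested on simulated data. Named genes were the gate genes, Smoc1, the 3 smallest p of each list, the first 20 identity genes, 5 genes per interaction and, with 0 calls, the 25 smallest p with groups apart. Ratios between classes used 1 added CPM. Some genes that this rule names are not reported here.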

Additional observations from a re-analysis of the deposited data

How the results depend on the processing

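Several results moved with single rats of either group. With 1 rat left out at a time, calls between TBI and control ranged from 0 to 101 genes, the difference in the share of precursor nuclei from -0.40 to 0.46 points, that in committed precursors per 100 from -3.21 to 2.35 (without TBI rat 2 and TBI rat 1) and that in cycling nuclei from -2.05 to -0.17 points. The 1 gene called without TBI rat 1 was Slc9b1 (86.1, 4.13, 138 and 118 CPM). Calls of the interaction ranged from 1 to 10 against mature oligodendrocytes and from 0 to 10 against astrocytes, both highest without the sham rat, and bulk calls from 0 to 1. The difference in shares was -0.22 points with 5 gate UMIs and -0.54 with 1000 UMIs a nucleus, that in committed precursors 3.35 with 1000 UMIs, and that in cycling nuclei 0.53 points with 1 or more cycle UMIs. Without a filter on low counts 1 gene passed the interaction with mature oligodendrocytes. The cause was not tested. EdgeR's count for precursor nuclei stayed at 0 with DESeq2, library totals in place of TMM, no filter on low counts, the stricter gates and the study's filters, and with stored zeros read as 1 UMI, which was chosen after seeing the data. In bulk, the replicate block called 125 genes, 124 higher and 1 lower, and same-numbered rats correlated by 0.35, 0.17 and -0.03. So few correlations cannot decide whether the numbers pair the rats, and the main fit used no pairing. For the nuclei no paired analysis was possible because the control rats share only 1 replicate number with the TBI rats. Few UMIs limit most single genes: 4981 of 25399 were tested.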
